A study of Rattus norvegicus with 12 samples.

Results

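Messenger RNAs for the translation initiation factors (eIF) and elongation factors (eEF) were followed in cultured rat hippocampal neurons through a brief burst of synaptic activity. Members were taken by their names, as every probe whose platform symbol began with Eif or Eef and a digit, with pseudogene symbols left out. The rule gave 52 probes for 48 genes, of 22523 probes and 13337 named genes on the Illumina RatRef-12 array. A few members carry the name without being classical factors, among them Eef1e1, a scaffold protein of the aminoacyl-tRNA synthetase complex, and Eif1ad, which has a domain like that of eIF1A.

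The neurons came from Sprague Dawley rats at embryonic day 18.5, were cultured for 12 days over glia, and 3 coverslips were pooled for each RNA sample. Every culture first spent 3 h in an inhibitor cocktail that blocks NMDA receptors (D-APV at 50 µM), AMPA and kainate receptors (CNQX at 40 µM) and sodium channels (TTX at 100 nM). The group called Block stayed in the cocktail, whereas the group called Activity received 50 µM bicuculline (BiC), which relieves inhibition, with 500 µM 4-aminopyridine (4-AP), a potassium channel blocker, for 5 min. Each was run with 25 µM actinomycin D (ActD), which stops transcription, or with its vehicle, given before the stimulus. RNA was taken at 5, 30 or 60 min, which made 12 arrays, 1 for each combination and all labelled as replicate 3. No group therefore had a replicate. The p-values rest on how far an effect varied between harvests or treatments, a spread that may be technical. The study reads an activity difference under ActD as a change of mRNA stability. Levels here are relative within each array, so a rise between harvests under ActD does not by itself show stabilization.

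Translation of most mRNAs starts when eIF4E binds the 5′ cap and, with the scaffold eIF4G and the helicase eIF4A, recruits a ribosomal subunit carrying eIF3 and the initiator tRNA on eIF2. The eIF4E-binding proteins (4E-BPs) compete with eIF4G for eIF4E, and phosphorylation of eIF2 by one of its stress kinases stops the exchange factor eIF2B from recharging it. Elongation is run by eEF1A, which brings in charged tRNAs, and eEF2, which moves the ribosome and is switched off by eEF2 kinase, an enzyme activated by calcium. In hippocampal neurons these steps are known as control points for the local protein synthesis that lasting synaptic change requires.

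The promoters of 42 of the 48 genes were in the RefSeq table of the rat build GRCr8, and 6 genes (Eif4e3, Eef1d, Eif4ebp1, Eif4b, Eif3h and Eif3e) were not matched there. The 250 bases before the RefSeq start were searched on both strands for the ETS motif CCGGAAG, the E-box CACGTG, the GC box GGGCGG, the cyclic AMP response element TGACGTCA and the CCAAT box CCAAT. No motif contains another, although matches can share bases. The ETS letters were in 16 of 42 member promoters (38.1%), against 7.27% of all 33469 promoters and 9.01% of those of protein-coding genes. The GC box was in 66.7% of member promoters, against 38.9% for protein-coding genes, and the E-box in 16.7%, against 6.16%. The CCAAT box stood at 28.6%, against 35.0%, and the cyclic AMP response element was in the promoter of Eef2 and in no other member's. A match is only a run of letters, and the members' share was not tested.

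The promoters of 6 genes are printed from RefSeq, since they belong to genes with called harvest differences described below and differ in their motifs, with matches to the ETS motif, E-box and GC box in capitals, each 5′ to 3′ on the gene's own strand. The first 3 genes were higher at the later harvests, and the last 3 were lower.
Eif3a, chr1:269919026-269919275, minus strand: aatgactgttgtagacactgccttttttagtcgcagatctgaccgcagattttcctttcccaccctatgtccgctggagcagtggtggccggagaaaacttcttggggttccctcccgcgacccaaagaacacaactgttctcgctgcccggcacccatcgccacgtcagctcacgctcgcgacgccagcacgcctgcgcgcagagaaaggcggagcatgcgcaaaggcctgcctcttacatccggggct
Eif4a2, chr11:91275324-91275573, minus strand: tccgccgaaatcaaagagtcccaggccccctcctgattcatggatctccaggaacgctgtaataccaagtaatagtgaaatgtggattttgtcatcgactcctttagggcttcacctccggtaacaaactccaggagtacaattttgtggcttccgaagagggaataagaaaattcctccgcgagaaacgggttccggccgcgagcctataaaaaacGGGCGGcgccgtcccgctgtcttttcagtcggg
Eif4e, chr2:229740503-229740752, plus strand: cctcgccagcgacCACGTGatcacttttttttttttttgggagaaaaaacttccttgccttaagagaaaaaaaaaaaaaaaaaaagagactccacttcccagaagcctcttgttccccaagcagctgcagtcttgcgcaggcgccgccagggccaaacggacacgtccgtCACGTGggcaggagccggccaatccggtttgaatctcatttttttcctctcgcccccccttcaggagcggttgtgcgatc
Eif2b2, chr6:110597729-110597978, plus strand: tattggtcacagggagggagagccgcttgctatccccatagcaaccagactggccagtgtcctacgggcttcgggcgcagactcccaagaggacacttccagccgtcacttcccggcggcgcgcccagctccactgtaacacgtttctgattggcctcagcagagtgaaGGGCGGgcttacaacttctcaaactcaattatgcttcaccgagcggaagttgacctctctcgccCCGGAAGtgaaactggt
Eif4e2, chr9:95333775-95334024, plus strand: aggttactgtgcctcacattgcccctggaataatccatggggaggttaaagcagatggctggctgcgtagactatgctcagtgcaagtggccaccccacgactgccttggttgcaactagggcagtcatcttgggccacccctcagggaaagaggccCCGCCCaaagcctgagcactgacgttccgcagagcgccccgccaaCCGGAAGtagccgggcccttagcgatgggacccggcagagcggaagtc
Eif3d, chr7:111432741-111432990, minus strand: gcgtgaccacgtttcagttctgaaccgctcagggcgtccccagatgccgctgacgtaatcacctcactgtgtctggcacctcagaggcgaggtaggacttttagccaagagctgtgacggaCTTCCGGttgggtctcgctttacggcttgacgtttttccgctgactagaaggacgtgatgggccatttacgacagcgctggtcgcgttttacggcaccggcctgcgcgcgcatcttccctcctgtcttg
None of the first 3 held the ETS letters, and each of the last 3 held them once. Since the 6 were picked partly by their motifs, this contrast is not a result. Genes not printed went the other way, such as Eef2k, Eif5a and Eif2b5, lower without the ETS letters, and Eif1a and Eif2b1, higher with them. Over all members with a promoter, the ETS letters were in 2 of 13 genes called higher at the later harvests, 5 of 10 called lower and 7 of 15 not called. These counts are small, and their differences were not tested. Eif4e held 2 E-boxes.

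Of the 52 probes, 48 were tested, since they had a detection p under 0.01 on at least 2 arrays. The other 4, for Eef2kmt, Eif2a, Eif4enif1 and Eif1ax, were detected on 0 arrays and lay between 4.36 and 5.07 on the log2 scale. Among the genes of the pathway that could be looked for by name, Eif4g1, Eif4g2, Eif4a3 and Eif6 had no named probe. The 5 Eef1a1 probes are given separately, since 1 of them (ILMN_2038788) was detected on 2 arrays, as was Eif3k, while the other 4 were among the brightest on the array. Quantile normalization gives equal ranks equal values there, which is why 1 Eef1a1 probe repeats the value 15.00 on several arrays. ILMN_2039948, ILMN_2039949 and ILMN_2039950 also repeat values (13.82, 14.84 and 14.63, for example), so differences of these probes follow their ranks near the top. Levels below are log2 of the normalized intensity, and levels of different probes are not compared.

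The 4 arrays of the 5 min harvest stood apart from the 8 later ones over the whole array, on a first principal component that held 69.1% of the variance (scores of -59.1 to -22.6, against 13.2 to 31.3). Total intensities ran from 10858233 to 13824776, and 9751 to 11032 probes were detected per array. The fewest were on Block+ActD and Activity+ActD at 5 min (9751 and 10001), while every other array had 10108 to 11032. The labelled cell type was checked against marker genes. The summed level of 10 neuronal markers was 27271 to 32700 at 5 min and 34976 to 45898 later, with 9 of the 10 called higher later and Rbfox3 detected only later. Astrocyte markers (7 genes) summed to 47851 to 54430 at 5 min and 45167 to 52632 later, those of the oligodendrocyte lineage (9 genes) to 14922 to 16205 and 14180 to 16615, and those of fibroblasts and vessels (7 genes) to 1314 to 1601 and 784 to 1318. Microglial markers (10 genes) summed to 967 to 1559 at 5 min and 92.0 to 137 later, where 8 of the 10 (Fcgr3a, C1qc, Cx3cr1, C1qa, Tyrobp, Itgam, C1qb and Ctss) were detected on 0 arrays. Marker levels of neurons and microglia thus moved with the harvest. Of 6 tested fibroblast and vessel probes, 3 were called lower later and 1 higher (median -0.50). The part of any of these cells in the harvest differences below was not tested. In such bulk RNA fewer cells of a type and less RNA per cell cannot be told apart. The labels do not say whether the 5 min cultures came from the same preparation as the later ones, so harvest and preparation cannot be told apart either, and a gene said to rise or fall between harvests differed between these arrays.

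The largest differences among the translation factors lay between the 5 min harvest and the later ones. With treatment as a factor, 29 of 48 member probes (60.4%) were called in limma's test, 17 higher and 12 lower at 30 and 60 min, against 49.3% of all 11792 probes tested (25.9% higher and 23.4% lower). The members' share lay somewhat above that of the whole array, and their median difference was 0.07, against -0.01 for all probes, on the log2 scale. The 4 arrays of 5 min and the 8 later arrays did not overlap for 16 of 48 member probes (33.3%), against 25.3% of all probes. Within eIF3, and also within eIF2B, some subunits were called higher, some lower and some not at all. The plot of all 48 differences shows the spread.

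**Figure D1:**
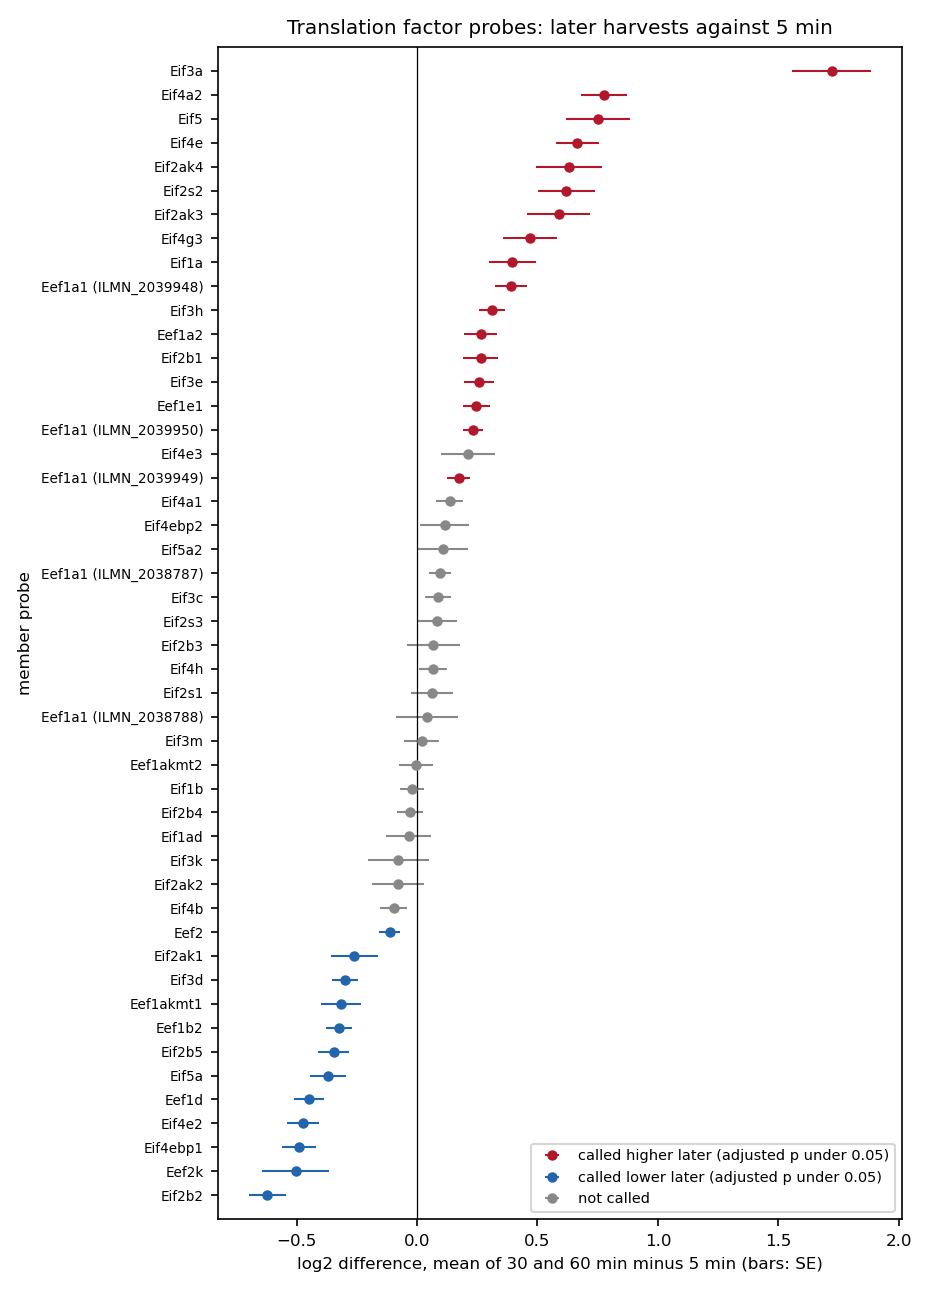
Difference between the mean of the 30 and 60 min arrays and the 5 min arrays (x axis, log2, bars are SE) for each of the 48 tested member probes (y axis, ordered by difference). The differences run from -0.62 for Eif2b2 to 1.72 for Eif3a, with 17 probes called higher, 12 called lower and 19 not called.

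Of the 7 measured eIF3 subunits, 3 were called higher later, 1 lower and 3 were not called. Eif3a, the large subunit around which the eIF3 core is built, had the largest difference of any member. Its level at 5 min was 10.74 in Block, 10.30 in Activity, 9.06 in Block+ActD and 9.41 in Activity+ActD, and the 8 later arrays ran from 10.99 through a median of 11.63 to 11.93. All 4 early arrays lay below all 8 later ones, by 1.72 ± 0.16 (SE), or 3.30-fold (adjusted p = 2.16e-06). Eif3h rose by a smaller amount, from 11.36 to 11.50 at 5 min to 11.57 to 11.86 later, again without overlap (0.31 ± 0.05, adjusted p = 0.000309). Eif3e rose by 0.26 ± 0.06 (adjusted p = 0.00397) with overlapping arrays. Eif3d, a subunit known to bind the cap of some mRNAs in human cells, went the other way, from 11.09 to 11.41 at 5 min to 10.77 to 11.12 later (-0.30 ± 0.05, adjusted p = 0.000478). The differences of Eif3c, Eif3m and Eif3k were 0.09 ± 0.05, 0.02 ± 0.07 and -0.08 ± 0.13 and were not called.

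Among the cap-recognition and helicase group, 3 of 8 probes were called higher and 1 lower. Eif4a2, the helicase paralogue that is prominent in brain, stood at 12.37 in Block, 12.25 in Activity, 11.66 in Block+ActD and 11.77 in Activity+ActD at 5 min, and between 12.51 and 13.04 (median 12.77) on the later arrays. The groups did not overlap, and the difference was 0.78 ± 0.09, or 1.71-fold (adjusted p = 1.78e-05). Its close relative Eif4a1 differed by 0.14 ± 0.06 with overlapping arrays and was not called (adjusted p = 0.0629). Eif4e, which binds the cap, had 5 min levels of 9.67 in Block, 9.58 in Activity, 9.12 in Block+ActD and 9.13 in Activity+ActD, and later levels of 9.87 to 10.16 (median 10.06). All later arrays were higher, by 0.66 ± 0.09 (adjusted p = 3.97e-05). Eif4e2, a cap-binding relative that represses translation, showed the opposite order, with 10.41, 10.36, 10.65 and 10.58 at 5 min in the same sequence of treatments and 9.86 to 10.09 later (-0.47 ± 0.07, adjusted p = 5.85e-05). Eif4e and Eif4e2 thus differed in opposite directions, each without overlap between early and later arrays, as was found for 25.3% of all probes. Whether the differences of these genes are linked was not tested. Eif4g3, a member of the eIF4G scaffold family, rose by 0.47 ± 0.11 (adjusted p = 0.00347), with its lowest array, Block+ActD at 5 min, at 8.08. The helicase cofactors Eif4b (-0.10 ± 0.05) and Eif4h (0.07 ± 0.06), and Eif4e3 (0.21 ± 0.11), were not called.

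Of the 4E-BPs, Eif4ebp1 was called and Eif4ebp2 was not, and their differences were not compared by a test. Eif4ebp1 stood at 10.41 in Block, 10.56 in Activity, 10.80 in Block+ActD and 10.56 in Activity+ActD at 5 min, and between 9.93 and 10.21 later. Every early array was above every later one, with a difference of -0.49 ± 0.07 (adjusted p = 7.19e-05). Eif4ebp2, the 4E-BP best known from mammalian brain, differed by 0.12 ± 0.10 (95% interval -0.10 to 0.34) and was not called. Its probe was dim, at 5.61 to 6.39, not far above the undetected probes.

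Within eIF2, the tRNA-carrying factor, Eif2s2, the beta subunit, was the 1 subunit called. It had 5 min levels of 12.46 in Block and 12.39 in Activity but 11.49 and 11.70 in the matching ActD cultures, against 12.37 to 12.76 later, so its difference of 0.62 ± 0.12 (adjusted p = 0.000684) was carried mainly by the ActD arrays. Eif2s1, the alpha subunit that the stress kinases phosphorylate, differed by 0.06 ± 0.09, and Eif2s3, the gamma subunit, by 0.08 ± 0.08. In the exchange factor eIF2B, whose 5 subunits were all measured, Eif2b2 and the catalytic subunit Eif2b5 fell, Eif2b1 rose, and Eif2b3 and Eif2b4 were not called. Eif2b2 was at 10.93 in Block, 10.98 in Activity, 11.27 in Block+ActD and 11.25 in Activity+ActD at 5 min, and at 10.32 to 10.63 later. Its difference of -0.62 ± 0.07, or 1.54-fold higher at 5 min (adjusted p = 1.66e-05), was the largest fall of any member. Eif2b5 fell from 10.22 to 10.52 at 5 min to 9.88 to 10.20 later (-0.35 ± 0.06, adjusted p = 0.000534), and Eif2b1 rose by 0.26 ± 0.07 (adjusted p = 0.00825) with overlap.

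The 4 eIF2 kinases also split. Eif2ak4 (GCN2, which senses uncharged tRNA) was at 6.58 in Block, 6.26 in Activity, 5.84 in Block+ActD and 6.09 in Activity+ActD at 5 min, and at 6.62 to 7.25 later (0.63 ± 0.14, adjusted p = 0.00171). Eif2ak3 (PERK, which senses unfolded protein in the endoplasmic reticulum) was at 5.87, 6.04, 5.83 and 5.32 in the same order, and at 6.19 to 6.54 later (0.59 ± 0.13, adjusted p = 0.00183). For both kinases all later arrays lay above all early ones. Eif2ak1 (HRI, the heme-regulated kinase) fell by 0.26 on the log2 scale (SE 0.10, adjusted p = 0.0397) with overlapping arrays, and Eif2ak2 (PKR, activated by double-stranded RNA) differed by -0.08 ± 0.11. The call of Eif2ak1 was lost without any 1 of 8 arrays (all but Block 5 min, Block 30 min, Block+ActD 30 min and Activity+ActD 60 min, adjusted p = 0.0522 to 0.184) and with other scalings, being -0.07 with total-intensity scaling.

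Eif5, which triggers GTP hydrolysis on eIF2 at the start codon, ranged from 7.31 in Block+ActD through 7.56 in Activity+ActD and 8.06 in Activity to 8.55 in Block at 5 min, and from 8.31 to 8.78 later (0.75 ± 0.13, adjusted p = 0.000356). Only the Block array of 5 min lay within the later range. Eif1a, which helps the ribosome scan for the start codon, rose by 0.40 ± 0.10 (adjusted p = 0.00401), and Eif1b, a relative of the start codon factor eIF1, differed by -0.02 ± 0.05. Eif5a, the hypusine-bearing factor that relieves stalled ribosomes, fell from 10.81 in Block, 10.98 in Activity, 11.27 in Block+ActD and 11.20 in Activity+ActD to 10.56 to 10.78 later, without overlap (-0.37 ± 0.08, adjusted p = 0.00111). Its paralogue Eif5a2, a dim probe at 5.30 to 6.10, differed by 0.11 ± 0.10 and was not called.

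For the elongation factors, 2 of 2 measured subunits of the eEF1B exchange complex fell while the eEF1A genes rose. Eef1d was at 12.08 in Block, 12.17 in Activity, 12.38 in Block+ActD and 12.37 in Activity+ActD at 5 min and at 11.70 to 11.92 later (-0.45 ± 0.06, adjusted p = 5.59e-05). Eef1b2 ran from 12.79 to 13.00 at 5 min and from 12.44 to 12.71 later (-0.32 ± 0.05, adjusted p = 0.000184). Neither gene's early and later arrays overlapped. Eef1a2, the eEF1A form of mature neurons and muscle, rose by 0.26 ± 0.07 (adjusted p = 0.00483). The Eef1a1 probes ILMN_2039948, ILMN_2039950 and ILMN_2039949 rose by 0.39 ± 0.07, 0.23 ± 0.04 and 0.17 ± 0.05, whereas ILMN_2038787 (0.10 ± 0.04) and the dim ILMN_2038788 (0.04 ± 0.13) were not called. With normexp correction and median scaling none of the 3 was called (0.18, 0.01 and -0.03 in that order), nor was Eef1a2 (0.16). The call of ILMN_2039949 was also lost without Block+ActD 5 min (0.13, adjusted p = 0.0712). Eef2 fell by 0.11 on the log2 scale (SE 0.04), close to the threshold (adjusted p = 0.0484), and its call was lost without any 1 of 11 arrays, all but Activity 5 min (adjusted p = 0.0538 to 0.268). Eef2k, its calcium-activated kinase, was at 7.78 in Block, 7.70 in Activity, 7.63 in Block+ActD and 7.92 in Activity+ActD at 5 min and at 6.73 to 7.62 later (-0.50 ± 0.14, adjusted p = 0.00827). Its early arrays all lay above its later ones, though the call was lost without Activity+ActD 5 min (-0.40, adjusted p = 0.0576). Eef1akmt1, a lysine methyltransferase of eEF1A, fell by 0.32 on the log2 scale (SE 0.08), Eef1akmt2 was not called (adjusted p = 0.967), and Eef1e1 rose by 0.25 ± 0.06. With total-intensity scaling the calls of Eef2k (-0.29), Eef1akmt1 (-0.13) and Eef1a1 ILMN_2039949 (0.09) were lost.

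**Figure D2:**
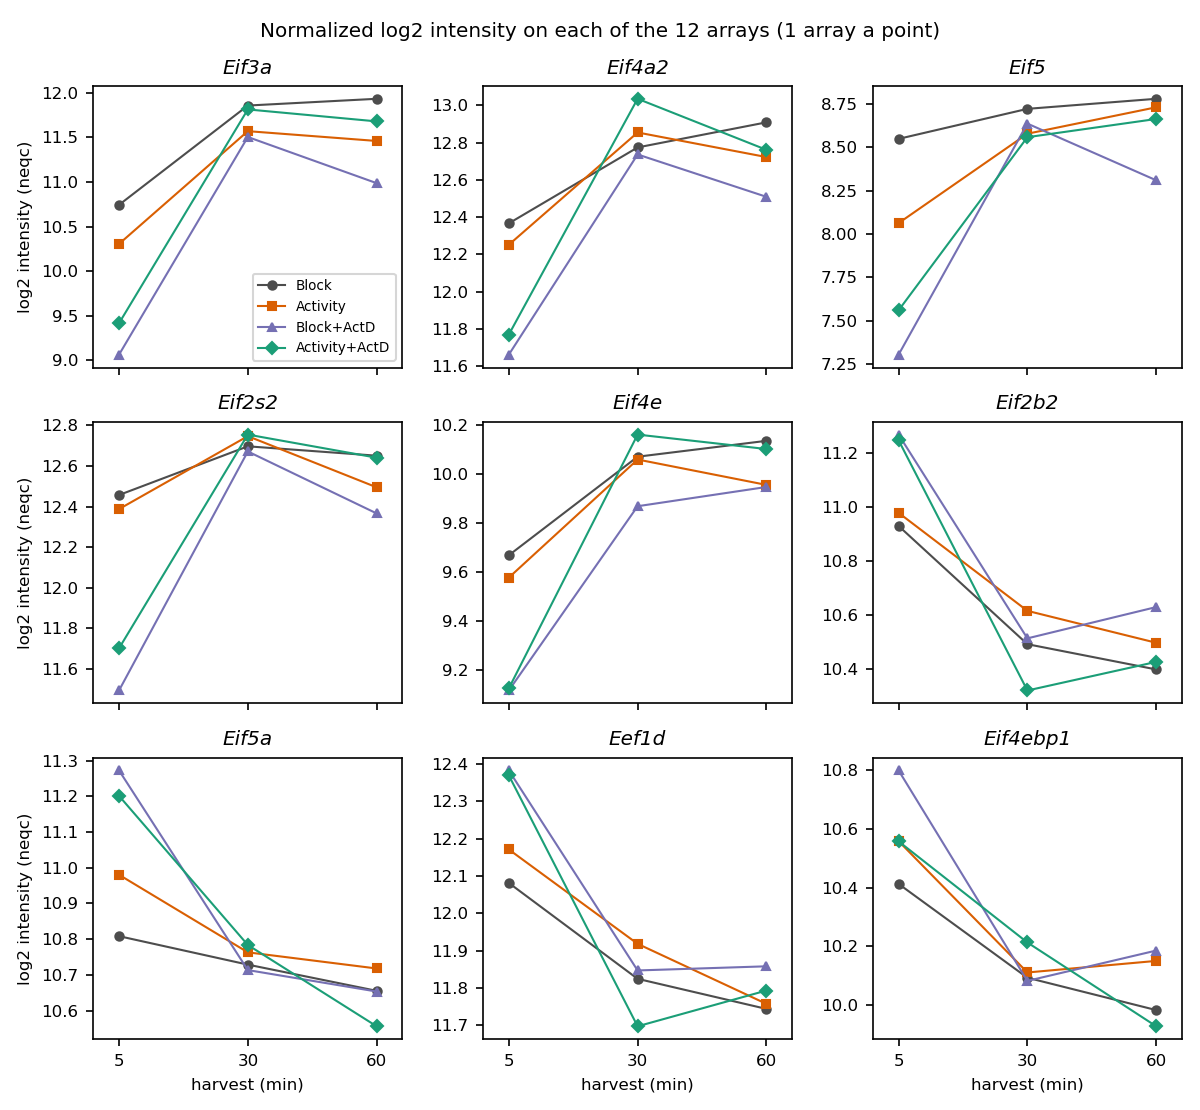
Normalized log2 intensity (y axis of each panel, scaled to that gene) on each of the 12 arrays against harvest (x axis, 5, 30 and 60 min) for 9 members, with 1 line for each of the 4 treatments and no error bars, since each point is 1 array. For Eif3a, Eif4a2, Eif5, Eif2s2 and Eif4e the ActD arrays of 5 min are the lowest points, and for Eif2b2, Eif5a and Eef1d they are the highest.

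Between 30 and 60 min no member was called. Of 48 probes 0 were higher and 0 lower, against 2.89% and 3.58% of all probes (6.47% or 763 together), and 9 (18.8%) had an unadjusted p under 0.05, against 18.7% of all. The lowest p-values belonged to Eef1a1 ILMN_2039948 (0.26 ± 0.08, adjusted p = 0.071), Eif1ad (0.34 ± 0.11), Eif3c (-0.18 ± 0.06), Eif4b (-0.17 ± 0.06) and Eif4ebp2 (0.30 ± 0.12), with adjusted p-values up to 0.166.

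The harvest difference was larger in size under ActD for a few members. The contrasts without and with ActD came from 1 model of all 12 arrays with a shared spread, so their calls are not independent. Without ActD the harvest difference was called for 18 of 48 member probes (37.5%), 11 higher and 7 lower, against 31.1% of all probes (17.1% and 14%). With ActD it was called for 29 (60.4%), 18 higher and 11 lower, against 50.1% (24.8% and 25.3%). Without the Activity 5 min array, the contrast without ActD called only 3 members higher and 3 lower, and with normexp correction and median scaling its balance turned, to 4 higher and 11 lower. The difference between the harvest contrasts with and without ActD was itself called for 6 members (12.5%), 5 in the higher direction and 1 in the lower, against 7.82% of all probes (6.66% and 1.16%). The 5 (10.4%) were Eif3a, Eif2s2, Eif4a2, Eif5 and Eif4e, and the 1 was Eif5a. Most tested member probes belong to initiation factors or their regulators, so these names do not set initiation apart from elongation. With normexp and median scaling 12 members were higher and 0 lower in this contrast.

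For Eif3a the later arrays exceeded the 5 min arrays by 1.18 ± 0.08 without ActD and 2.26 ± 0.08 with it, a difference of 1.08 ± 0.12 (adjusted p = 0.000285). The later levels were 11.46 to 11.93 without ActD and 10.99 to 11.81 with it, and overlapped, while the 5 min levels with ActD (9.06 and 9.41) lay well below those without (10.74 and 10.30). Eif2s2 differed by 0.23 ± 0.07 without ActD and 1.01 ± 0.07 with it (0.79 ± 0.09 between them, adjusted p = 0.000396). Eif4a2 differed by 0.51 ± 0.07 and 1.05 ± 0.07 (0.54 ± 0.10, adjusted p = 0.00489), and Eif5 by 0.40 ± 0.12 and 1.11 ± 0.12 (0.71 ± 0.16, adjusted p = 0.0178). Eif4e differed by 0.43 ± 0.08 and 0.90 ± 0.08 (0.47 ± 0.11, adjusted p = 0.0254). In each of these 5 genes both ActD arrays of 5 min were the lowest of the 12. Eif5a was the mirror image, with differences of -0.18 ± 0.07 and -0.56 ± 0.07 (-0.38 ± 0.10, adjusted p = 0.0313) and its ActD arrays of 5 min the highest of the 12. The calls of Eif3a and Eif2s2 held whichever 1 array was left out, and those of the other 4 did not. Eif4a2 lost its call without Block 5 min or Activity+ActD 5 min (0.46 to 0.51, adjusted p = 0.0601 to 0.0707). Eif5 lost it without any 1 of 5 arrays, namely Block, Block+ActD and Activity+ActD at 5 min and Block at 30 or 60 min (0.52 to 0.77, adjusted p = 0.0538 to 0.172). Eif4e lost it without any 1 of 7, the 4 arrays of 5 min, Block 30 min, Activity 60 min and Activity+ActD 60 min (0.36 to 0.57, adjusted p = 0.0525 to 0.207). Eif5a lost it without any 1 of 9 arrays, all but Block+ActD 30 min, Activity+ActD 30 min and Block+ActD 60 min (-0.44 to -0.32, adjusted p = 0.0599 to 0.189), and with total-intensity scaling (-0.26) or normexp with median scaling (-0.14).

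**Figure D3:**
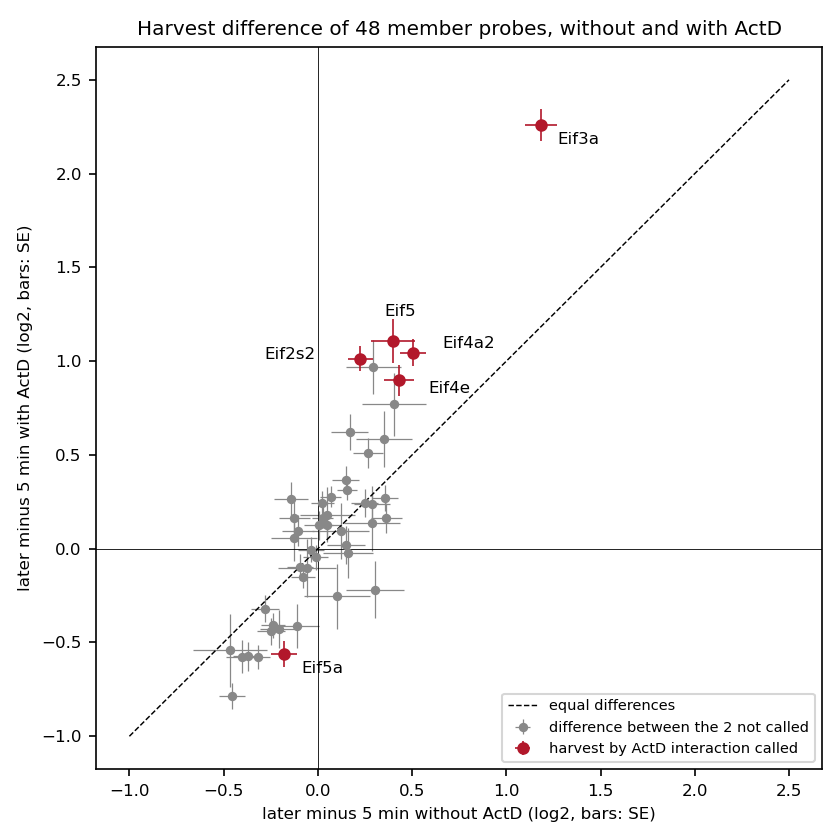
Later minus 5 min difference without ActD (x axis) and with ActD (y axis) for the 48 tested member probes, both log2 with SE bars. The 6 named probes, for which the difference between the contrasts was called, lie off the dashed line of equality, from Eif3a at 1.18 and 2.26 to Eif5a at -0.18 and -0.56.

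More broadly, both ActD arrays of 5 min lay outside the range of the other 10 arrays, on the same side, for 22 of 48 member probes (45.8%), against 38.4% of all probes, so this standing apart was common across the array. Both also had fewer probes detected (9751 and 10001) than any other array (10108 to 11032). The part of this array-level difference in the ActD differences was not tested. At 5 min the marker sums with and without ActD overlapped for microglia (1016 to 1559 and 967 to 1394), neurons (27981 to 30925 and 27271 to 32700) and the oligodendrocyte lineage (14922 to 16205 and 15792 to 15985). They did not overlap for astrocytes (47851 to 52650 with ActD and 54053 to 54430 without) or for fibroblasts and vessels (1314 to 1373 and 1534 to 1601), and the part of these cells in the ActD differences was not tested. In single pairs of arrays, ActD minus no ActD at 5 min was -1.68 in Block and -0.89 in Activity for Eif3a, -1.24 and -0.50 for Eif5, -0.96 and -0.69 for Eif2s2, and -0.71 and -0.48 for Eif4a2. At 30 min the same pairs gave -0.35 and 0.24 for Eif3a and -0.03 and 0.01 for Eif2s2. At 60 min Block+ActD again lay below Block by 0.95 on the log2 scale for Eif3a, while Activity+ActD lay above Activity by 0.22. Eif3a was therefore lower with ActD at all 3 harvests in Block, and only at 5 min in Activity. Some of these pairs differed widely over the whole array. The share of all probes past 1.5-fold was 17.7% in Block and 7.5% in Activity at 5 min. It was 1.68% and 1.72% at 30 min, and 7.49% and 1.29% at 60 min.

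Averaged over all harvests and both stimuli, ActD had no called effect on any of the 48 member probes or of the 11792 probes (0%), although 12 members (25%) had an unadjusted p under 0.05, against 18.4% of all probes (2167). The members with the lowest p were Eif3e (-0.25 ± 0.06), Eif1a (-0.35 ± 0.09), Eif3a (-0.57 ± 0.16), Eif5 (-0.40 ± 0.12) and Eif3d (0.14 ± 0.05), with adjusted p-values of 0.17 to 0.208. Without the Block+ActD 30 min array, 604 probes and 4 members passed, all 4 lower with ActD, namely Eif3a (-0.68), Eif5 (-0.50), Eif1a (-0.40) and Eif3e (-0.28), with adjusted p-values of 0.0298 to 0.0348. Over both stimuli the members' median ActD effect was -0.02, and that of all probes 0.03.

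The question the study set was whether activity alters mRNA levels with transcription running and with it stopped. For the translation factors no activity effect passed the adjusted threshold, in either state, and none passed on the whole array (0%). Without ActD, 2 members (4.17%) had an unadjusted p under 0.05, against 7.5% of all probes (884), and with ActD 1 (2.08%), against 2.87% (338). The members' median effect was 0.01 without ActD and 0.02 with it. For Eif3a, whose harvest difference was the largest, the activity effect with ActD was 0.45 ± 0.22 (95% interval -0.02 to 0.92).

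The lowest p-value without ActD was that of the 4E-BP Eif4ebp2, and the lowest with ActD that of Eif5a2. Both probes were dim, with levels not far above those of the undetected members. Eif4ebp2 stood at 6.18, 6.14 and 6.32 in Block at 5, 30 and 60 min and at 5.79, 5.68 and 6.01 in Activity, lower at all 3 harvests (-0.39 ± 0.14, 95% interval -0.68 to -0.09, adjusted p = 0.654). With ActD its order was turned or level, at 5.61, 5.90 and 6.12 in Block+ActD and 6.18, 5.90 and 6.39 in Activity+ActD (0.28 ± 0.14). Eif5a2 was at 5.67, 5.87 and 6.10 in Block and 5.65, 5.47 and 5.69 in Activity (-0.28 ± 0.14), and at 5.39, 5.30 and 5.37 in Block+ActD and 5.57, 5.79 and 5.84 in Activity+ActD (0.38 ± 0.14). The activity effect with ActD minus that without it was 0.66 ± 0.19 for each of these genes and 0.85 ± 0.31 for Eif3a, followed by Eif4g3 (0.44 ± 0.21) and Eef1b2 (-0.18 ± 0.10). None of them passed (adjusted p = 0.705 for all 5), and 3 members (6.25%) had an unadjusted p under 0.05, against 6.4% of all probes (755). The other low p-values without ActD were those of Eef2k (-0.45 ± 0.19), Eif3d (0.14 ± 0.07) and Eif4e3 (-0.29 ± 0.15), with adjusted p-values of 0.654 to 0.668, and with ActD those of Eif2b5 (-0.16 ± 0.09) and Eif4g3 (0.27 ± 0.15), both at 0.996.

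By the rule of the study's methods, a transcript is co-regulated when its z-fold passes 1.4 the same way in cultures given ActD and in those given vehicle. The methods name a z-transformation without a formula. Here the z-fold was taken as the Activity minus Block difference of z-scored log intensities scaled to its spread (SD) across probes, so the counts hold for this form of it. The rule compares single arrays and involves no test. Of 46 members measured on all arrays at its lenient detection limit, 0 were co-regulated at 5 or 60 min, where 0.329% and 0.189% of 10040 probes were lower and 0.299% and 0.139% higher. At 30 min 2 members were lower (4.35%), against 2.97% of all probes (298), and 0 were higher (0.618%). These were Eef2k, with z-folds of -3.59 without ActD and -3.01 with it, and Eif4e3, with -2.53 and -2.25. Eef2k stood at 7.57 in Block and 6.77 in Activity at 30 min, and at 7.50 and 6.73 in the ActD pair, differences of -0.80 and -0.77 on the log2 scale. The difference was thus of like size with transcription blocked, 1 array against 1, whereas at 60 min the pair without ActD stood at 7.62 and 7.15 and the pair with it at 7.24 and 7.47. Eif4e3, an atypical cap-binding relative of eIF4E, was at 7.74 and 7.21, and at 7.75 and 7.19 with ActD, and the Activity arrays of the other harvests lay within 0.20 of their Block arrays.

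Some members passed 1.4 in opposite directions instead. At 5 min these were Eif3a (-2.23 without ActD and 2.27 with it) and Eif5 (-2.27 and 1.49), 4.35% of members against 3.26% of all probes. At 60 min they were Eif3a (-2.22 and 3.49), Eif5a2 (-1.54 and 1.63) and Eif1a (-1.53 and 1.71), 6.52% against 3.68%. In all 5 cases the Activity array was lower than its Block array when transcription ran and higher when it was stopped. Scores on the first principal component of the whole array turned the same way. At 5 min they were -22.6 in Block and -35.4 in Activity, but -59.1 in Block+ActD and -50.6 in Activity+ActD. At 60 min Activity again scored below Block, whereas Activity+ActD (24.7) scored above Block+ActD (13.2). Eif3a, Eif5 and Eif1a, but not Eif5a2, were also called higher at the later harvests, which scored higher. The part of this shift in the members' pattern was not tested.

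**Figure D4:**
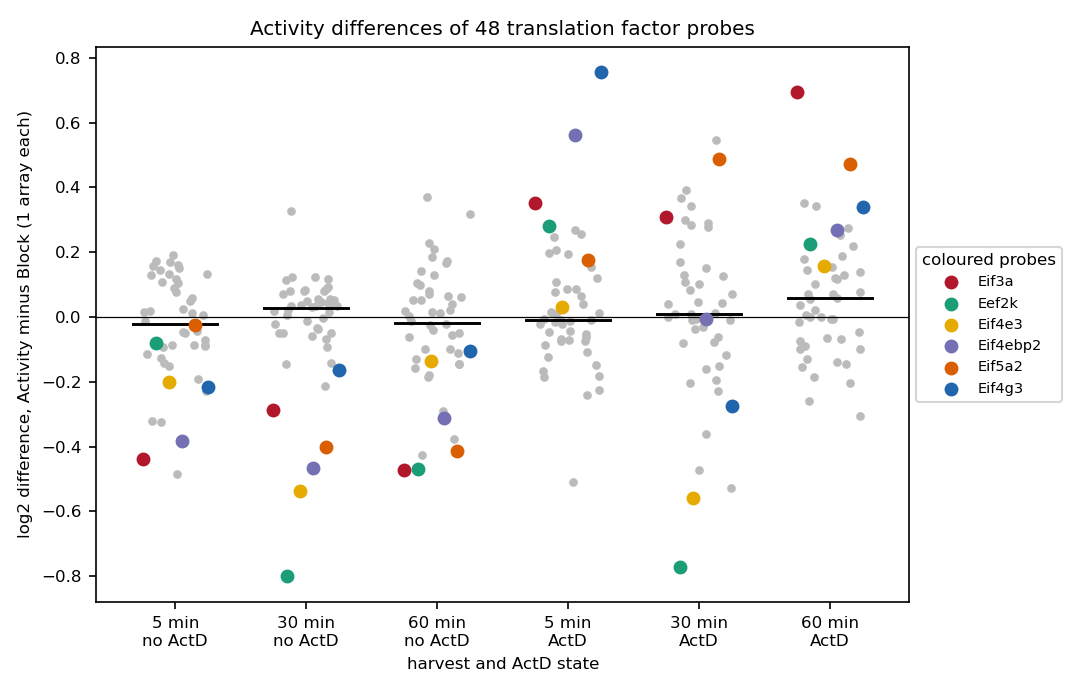
Activity minus Block log2 difference (y axis) of the 48 tested member probes at each harvest without and with ActD (x axis), with 1 array against 1, so that no error can be drawn. Grey points are members, black bars their medians, and 6 members are coloured; Eef2k lies at -0.80 and -0.77 at 30 min, and Eif3a lies below 0 at each harvest without ActD and above 0 at each harvest with it.

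Other genes of the same pathways were counted in the harvest contrast in the same way, against the 49.3% of all probes called (25.9% higher and 23.4% lower). Of 24 partners of the factors outside the name rule, 8 were called higher later and 4 lower, a share near that of the whole array (median 0.17, against -0.01 for all probes). The higher ones included Fmr1, the translational repressor lost in fragile X syndrome (1.52 ± 0.18, adjusted p = 1.43e-05), Abce1, which recycles ribosomes (0.91 ± 0.18), Rps6kb1, the S6 kinase (0.40 ± 0.13), and Mtor (0.22 ± 0.07). The lower ones included Ppp1r15a (GADD34), which directs dephosphorylation of eIF2 (-0.80 ± 0.09, adjusted p = 1.34e-05), and Cpeb1, which controls polyadenylation of dendritic mRNAs (-0.51 ± 0.10). Of 17 genes on a list of ATF4, the transcription factor translated when eIF2 is phosphorylated, and its targets, 9 were lower later and 2 higher (median -0.18). Nupr1 fell by 1.23 on the log2 scale (SE 0.12), Shmt2 by 0.61 (SE 0.08), Atf5 by 0.44 (SE 0.07) and Atf4 itself by 0.24 (SE 0.06), whereas Vldlr (0.60 ± 0.10) and Ddit4 (0.48 ± 0.07) rose. Mitochondrial translation factors gave 3 probes higher and 1 lower of 7, with Mtif2, the mitochondrial initiation factor, at 0.79 ± 0.10 and Tufm, its elongation factor Tu, at -0.25 ± 0.06. Members with a known 5′ terminal oligopyrimidine tract, the element that ties many translation factor mRNAs to mTOR, gave 5 probes higher and 3 lower of 11, for 7 genes (median 0.10). The higher ones were Eif3e, Eif3h and the Eef1a1 probes ILMN_2039948, ILMN_2039950 and ILMN_2039949, and the lower ones Eef1b2, Eef1d and Eef2. Repeated probes of Eef1a1 thus weigh on this count. In none of these 4 lists was an effect of activity, or of ActD averaged over harvests, called. The harvest difference was larger with ActD for 4 of the 24 partners, Fmr1 (by 1.13 ± 0.18), Abce1 (0.93 ± 0.25), Rps6kb1 (0.65 ± 0.18) and Paip2, an inhibitor of the poly(A)-binding protein (0.46 ± 0.10), and for 2 of the 7 mitochondrial probes, Mtif2 (0.51 ± 0.14) and Guf1 (0.50 ± 0.12), against 6.66% of all probes. It was smaller for 0 probes of the 4 lists, against 1.16%.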

How the data were processed

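RNA was hybridized to Illumina RatRef-12 arrays, 1 per group, grouped by the deposited labels. The authors summarized beads in BeadStudio (its version: not given in the sources used here). The deposited intensity values are linear mean bead signals, not scaled. A deposited detection p-value compares each probe with that array's negative controls. A second deposited table, scaled by the authors to equal total intensity, served as an alternative. Gene symbols came from the platform annotation (13793 probes named, 8730 not), and 47 of the 48 member symbols matched GRCr8 by gene ID.

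The neqc function of limma 3.58.1 (R 4.3.3) corrected the background, with an offset of 16, and gave quantile-normalized log2 values. Quantile normalization removes any overall shift in RNA content. Probes with detection p under 0.01 on at least 2 of 12 arrays were tested (11792). Linear models (lmFit, eBayes with trend) had harvest and treatment as factors (6 residual degrees of freedom), or harvest by ActD with stimulus within ActD (4). Benjamini-Hochberg adjustment ran over all tested probes, at 0.05, and the fit was tested on simulated data. Signal over background and the number of arrays limit the precision.

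Members with the lowest p were named, up to 20 called per comparison (5 where fewer than 5 passed), with a fixed set of core factors and all co-regulated members. Members and lists were chosen with earlier results of these data known. Alternatives were other scalings, background corrections and filters, robust variance, other z-fold settings, and leaving out each array. There were 0 unused sample columns.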

Additional observations from a re-analysis of the deposited data

Results flagged for a closer look

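The difference between the later harvests and 5 min differed between cultures with and without ActD, by the interaction test over all probes, for 6 translation factors. The difference between the contrasts (with ActD minus without) was 1.08 for Eif3a, 0.79 for Eif2s2, 0.54 for Eif4a2, 0.71 for Eif5, 0.47 for Eif4e and -0.38 for Eif5a, on the log2 scale. The same contrast was called for 7.82% of all probes.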

How the results depend on the processing

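The main model held harvest as a factor, so treatments were compared within harvests. Pairing by replicate was not possible, because every array carries the same replicate number, 3. Each group held 1 array, so leaving out an array assumes that the rest vary alike. Of 1476 re-tests of 82 calls of single members, 1325 kept the direction and the call, 148 kept the direction but lost the call, and 3 turned, all of them Eef1a1 probes with normexp and median scaling. These were later harvests against 5 min for ILMN_2039949 (-0.028), the same without ActD for ILMN_2039950 (-0.059) and with ActD for ILMN_2038787 (-0.015). The cause was not tested. That setting also moved the members called between later harvests and 5 min without ActD to 4 higher and 11 lower, and the harvest by ActD difference to 12 members higher, 0 lower and 1871 probes in all, while the median of all probes in that contrast moved from -0.05 to 0.14. Total-intensity scaling gave 8 members higher in the latter, and detection on all 12 arrays gave 2 lower, adding Eif2b2 (-0.33). Under either scaling 1 member, Eef1a1 ILMN_2039948, was higher at 60 than at 30 min.

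Co-regulated probes at 60 min numbered 9 higher at a detection p under 0.01 and 31 lower at a z-fold of 1.3. With neqc values they were 54 higher and 60 lower at 5 min, and 25 and 38 at 60 min. The members' counts did not move under these settings.

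Without 1 array at a time, later harvests against 5 min called 4740 to 5740 probes, 16 to 18 members higher and 9 to 11 lower. Without ActD the ranges were 1705 to 4210 probes, 3 to 12 higher and 3 to 9 lower (fewest without Activity 5 min), and with ActD 4086 to 6141, 13 to 21 and 9 to 12. The harvest by ActD difference ranged from 297 to 1592 probes, 2 to 8 members higher (fewest without Block 5 min) and 0 to 3 lower. The contrast of 60 and 30 min called 443 to 825 probes (fewest without Activity+ActD 60 min) and 0 members, and the ActD effect 0 to 604 probes and 0 to 4 members lower (most without Block+ActD 30 min). Activity effects and their interaction gave 0 in every such fit and with robust variance.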
